A study of Homo sapiens with 6 samples.

Results

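The 10 genes described here encode the subunits of the transcription factor AP-1 and 3 other early response factors: FOS, FOSB, FOSL1 and FOSL2 of the FOS family, JUN, JUNB and JUND of the JUN family, and EGR1, ATF3 and MYC. They form a list of gene names that uses no measured value as a criterion but was drawn up with earlier results of these data known, and all 10 were found by symbol among the 50868 listed genes. RNA came from 6 samples whose labels name A549, a line from a human lung adenocarcinoma, grown in RPMI medium with fetal bovine serum. The control group of 3 libraries received a scramble siRNA (si-NC, labelled wild type), and the other 3 libraries received an siRNA against SF3B4, a subunit of the SF3b complex that recognises the intron branch point during splicing. The comparison asks how transcript levels differ when SF3B4 is depleted. The sources used here do not give the dose, the time after transfection or the siRNA sequences. The replicates are called biological without a statement that they were separate cultures, so the p-values speak of library-to-library spread, which may be technical. In bulk RNA, fewer cells holding a transcript and less of it per cell cannot be told apart.

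AP-1 is a dimer of basic leucine zipper proteins. FOS proteins must pair with a JUN protein to bind DNA, whereas JUN proteins can also pair with each other. Many of these genes are immediate early genes: growth factors and stress induce them within minutes through MAP kinases, without new protein synthesis, and their short-lived mRNAs carry AU-rich elements in the 3′ UTR. FOSL1 (FRA-1) and FOSL2 (FRA-2) persist longer after stimulation than FOS and FOSB, and FOSL1 is known for its high level in many RAS-driven and invasive epithelial tumours, including those of the lung.

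Several facts of the whole series bear on the values below. The implied total was 17511908 to 18528812 fragments per library, and 9327 to 9678 genes per library reached 1 FPKM (fragments scaled by transcript length and by library total). SF3B4 read 88.6, 92.0 and 93.8 FPKM in controls against 22.0, 17.7 and 22.3 FPKM after its siRNA, 22.6% of control. All 6 epithelial markers exceeded 1 FPKM in every library, and their sum ranged from 1352 to 1551 FPKM in controls and from 1495 to 1559 FPKM after SF3B4 siRNA. Keratins make up most of that sum; of the 6, CDH1 (log2 fold change 0.87, limma adjusted p = 0.0080) and EPCAM (0.36, limma adjusted p = 0.049) were called higher after SF3B4 siRNA. Of 10 genes typical of A549, 6 were below 1 FPKM in every library (AKR1C1, AKR1C2, ALDH1A1, ALDH3A1, CPS1 and GPX2), and the tables' column headings read H1650, a different lung cancer line, so the line is given here as labelled. PTPRC and LYZ (leukocytes) and KDR (endothelium) were listed at 0 throughout, while CD14 made up nearly all of the summed leukocyte list, which ranged from 2.46 to 2.87 FPKM in controls and from 4.76 to 6.59 FPKM after SF3B4 siRNA. The summed fibroblast list ranged from 2.13 to 2.24 FPKM in controls and from 2.88 to 3.23 FPKM after SF3B4 siRNA, with COL1A1 called higher (log2 fold change 0.73, limma adjusted p = 0.0023). The part of these marker differences in the results below was not tested. For replicates 2 and 3 of the SF3B4 siRNA group the genotype field reads SF3B5 and SF3B6, unlike the title and treatment fields; grouping followed the titles.

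The 10 genes differ in gene structure. JUN, JUNB and JUND each consist of 1 exon and have no intron, whereas EGR1 has 2 exons, MYC has 3, and FOS, FOSB, FOSL1, FOSL2 and ATF3 have 4 each in the GENCODE 29 transcript used. Their 3′ UTRs run from 476 bases in MYC to 4864 bases in FOSL2. The core of the AU-rich element, ATTTA, occurred in the 3′ UTR of all 10 (searched on the transcript strand): 9 times in FOSL2, 5 in FOS, 4 in MYC, 3 each in FOSB, JUN and ATF3, 2 in JUNB, and 1 each in FOSL1, JUND and EGR1. The same letters occurred in 63.9% of the 8419 tested coding genes with a 3′ UTR. The longer word TTATTTATT, which contains ATTTA, was found in FOS and FOSL2, against 6.44% of those genes. These AU-rich sites are shown because they are the textbook instability signal of this gene class. Capitals mark TTATTTATT (GENCODE 29, GRCh38, plus strand of chr14:75282060-75282089 for FOS and chr2:28416355-28416384 for FOSL2).
FOS: tgtttttaatTTATTTATTaagatggattc
FOSL2: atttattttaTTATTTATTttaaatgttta

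The words GCCTTCA and CCTTCAA, which share the letters CCTTCA, were singled out in earlier work on these same data among genes that fell, so their presence in a gene that fell is no independent support. They are shown because FOSL1, FOSL2 and EGR1, and none of the other 7 genes in the transcripts used, carried at least 1 of them in the 3′ UTR; FOSB carried GCCTTCA only in another annotated transcript. Either word occurred in 17.4% of the tested coding genes searched. The median log2 fold change of those carriers was -0.20, against 0.02 for the other genes searched. This difference is no independent support either, since the words were picked in these same data among genes that fell. Capitals mark the word. The windows lie at chr11:65892317-65892346 (minus strand) for FOSL1, chr2:28415843-28415872 and chr2:28412504-28412533 (plus strand) for FOSL2, and chr5:138468401-138468430 (plus strand) for EGR1, all GRCh38 from GENCODE 29.
FOSL1: agctttgagaaGCCTTCAgctccagggaat
FOSL2 first: aaggtaagattGCCTTCAgtctgatgtttg
FOSL2 second: agggaccagcaCCTTCAAgcgctccagggc
EGR1: accccttgctcCCTTCAAtgctagaaaatc

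Several of the promoters hold AP-1 or related sites, and these are shown because AP-1 genes are among the known targets of AP-1 itself. RefSeq promoters (GRCh38.p14, 250 bases before to 50 after the start) were matched for 8 of the 10 genes, with FOSL1 and MYC unmatched. They came to 9 windows, because ATF3 has a second start site. Both strands were searched for the AP-1 site TGANTCA, the cyclic AMP response element TGACGTCA, and TGACATCA, the JUN-type variant of it. Here N in TGANTCA stands for C or G only, not for any base. None of the 3 words contains another. TGANTCA occurred in 4.95% of 35116 promoters and, among these genes, in FOSL2. TGACGTCA occurred in 1.85% of promoters and in JUND. TGACATCA occurred in 2.61% of promoters, in JUN and in the ATF3 window at chr1:212565157-212565456. The other ATF3 window, at chr1:212614768-212615067, held none of the 4 sites searched here. The CArG box, the site of serum response factor, occurred in 1.29% of promoters and in EGR1 alone of these 8, with 2 boxes. No FOS, FOSB or JUNB window held any of the 4, which says only that these letters are not in the window. Capitals mark the site in the windows chr2:28392851-28392880 (plus strand) for FOSL2, chr19:18281804-18281833 (minus strand) for JUND, chr1:58784096-58784125 (minus strand) for JUN, chr1:212565273-212565302 (plus strand) for ATF3 and chr5:138465349-138465478 (plus strand) for EGR1.
FOSL2: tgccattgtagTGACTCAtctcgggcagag
JUND: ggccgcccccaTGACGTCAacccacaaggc
JUN: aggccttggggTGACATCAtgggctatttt
ATF3: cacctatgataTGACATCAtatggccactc
EGR1: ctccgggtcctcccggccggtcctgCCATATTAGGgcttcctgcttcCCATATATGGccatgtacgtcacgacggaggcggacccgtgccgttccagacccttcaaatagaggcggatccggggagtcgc

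After SF3B4 siRNA, FOSL1 and JUN fell and JUNB rose among the 6 of these genes that were tested. FOSL1 dropped to 32.8% and JUN to 72.4% of control, and JUNB stood at 123% of control. FOSL2, JUND and ATF3 did not pass the test. FOS, FOSB, EGR1 and MYC lay below 1 FPKM in too many libraries to be tested, since a gene needed at least 1 FPKM in 3 of the 6 libraries. The test was limma on log2(FPKM + 0.1) over 9685 genes, two-sided, with Benjamini-Hochberg adjustment over all of them and a threshold of 0.05. Of all genes tested, 18.1% were called lower and 16.0% higher, and the counts here of 2 and 1 in 6 are read against those shares; nothing particular to these genes follows from them. The 2 groups of libraries did not overlap for 7 of the 10 genes, and for 5 of the 6 tested, where 49.5% of all tested genes did not overlap. With 3 libraries against 3, an exact two-sided permutation test of a single gene cannot go below 0.1, and it gave 0.1 for those 7 genes, 0.2 for FOSB and 0.4 for ATF3 and MYC.

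**Figure D1:**
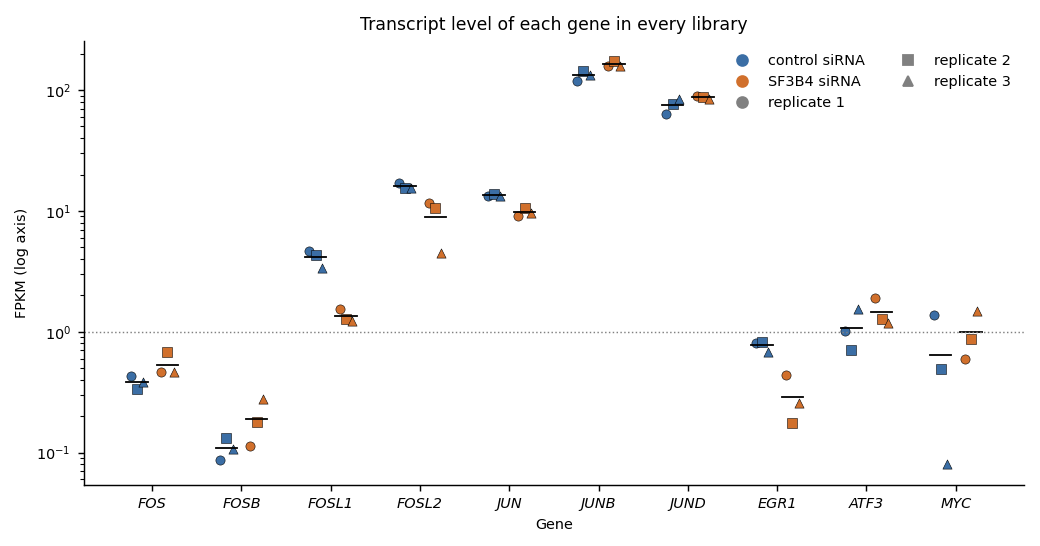
FPKM of each of the 10 genes (log axis) in 3 control siRNA libraries (blue) and 3 SF3B4 siRNA libraries (orange); marker shape gives the replicate number, black lines are group means and the dotted line is 1 FPKM. JUNB and JUND stood highest in every library, FOSL1 and EGR1 were lower in all 3 SF3B4 siRNA libraries, and MYC spread over a 17.2-fold range within the control group.

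Of the FOS family, FOSL1 was the member that passed the test with all 6 libraries. FOSL1 (ENSG00000175592, GRCh38 chr11:65892049-65900573, minus strand) lacks, like FOSL2, the strong activation domain of FOS and FOSB, and pairs with JUN proteins. Its control libraries read 4.68, 4.32 and 3.36 FPKM and its SF3B4 siRNA libraries 1.55, 1.28 and 1.23 FPKM. Every SF3B4 siRNA library lay well below every control library. On the log2 scale the change was -1.53 (standard error 0.15, limma adjusted p = 0.000472), and the call held in all 15 alternatives in which the gene was tested, with values from -1.67 to -1.12. The level rested on about 38 to 143 fragments per library, estimated from FPKM, the length of the transcript used and the inferred depth. For such numbers counting alone gives a coefficient of variation of at most 16.2%.

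FOSL2 (ENSG00000075426, chr2:28392448-28417312, plus strand) was the most abundant FOS family transcript in every library. It read 16.9, 15.6 and 15.3 FPKM in controls and 11.5, 10.6 and 4.47 FPKM after SF3B4 siRNA. The groups did not overlap, but SF3B4 siRNA replicate 3 stood far below the other two of its group. On the log2 scale the change was -0.95 (standard error 0.35, limma adjusted p = 0.0864), which did not pass the test. Without SF3B4 siRNA replicate 3 the mean was 69.6% of control and the log2 fold change -0.52 (standard error 0.09, limma adjusted p = 0.00884), a smaller difference that did pass. The ratio of 2.58 between the highest and lowest library of the SF3B4 siRNA group was matched or exceeded by 1.41% of tested genes, while 555 fragments stood behind the lowest value.

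FOS and FOSB, the FOS members with the strongest activation domains and the fastest induction, were barely present. FOS (ENSG00000170345, chr14:75278774-75282230) read 0.428, 0.334 and 0.387 FPKM in controls and 0.465, 0.674 and 0.463 FPKM after SF3B4 siRNA. All 3 SF3B4 siRNA values were above all 3 controls, each from only 13 to 26 fragments. FOSB (ENSG00000125740, chr19:45467995-45475179) read 0.0863, 0.133 and 0.107 FPKM in controls and 0.114, 0.181 and 0.278 FPKM after SF3B4 siRNA, with overlapping groups and 6 to 19 fragments per library. To place such low genes, a second fit took all 16563 genes with at least 0.1 FPKM in 3 libraries, of which 11.1% were called lower and 9.00% higher. In it neither passed: the log2 fold change was 0.38 for FOS (limma adjusted p = 0.21) and 0.45 for FOSB (limma adjusted p = 0.32). A pseudocount of 0.1 is large beside FOSB, so its fold change on this scale understates the ratio of its levels.

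**Figure D2:**
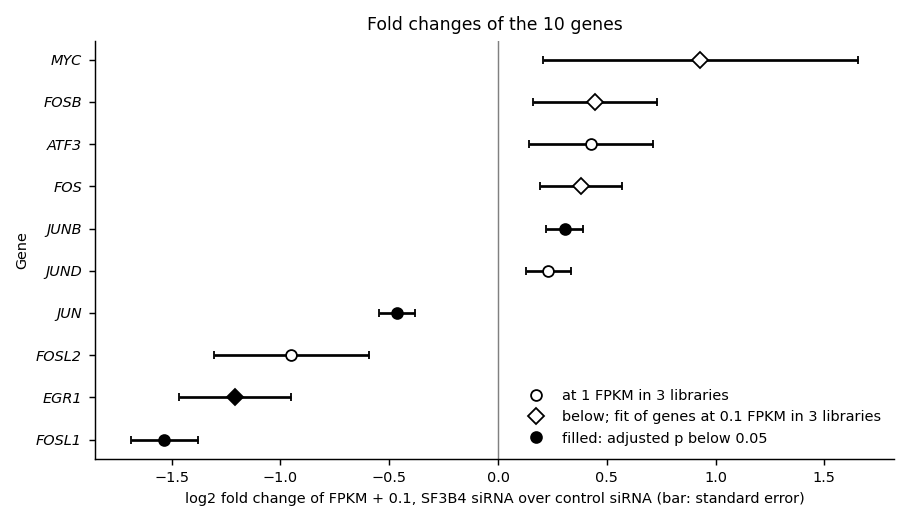
log2 fold change of FPKM + 0.1 (SF3B4 siRNA over control siRNA) with its standard error for each of the 10 genes; circles come from the fit of genes at 1 FPKM in 3 libraries, diamonds from the fit reaching down to 0.1 FPKM, and filled symbols passed an adjusted p of 0.05. FOSL1 at -1.53, EGR1 at -1.21 and JUN at -0.46 are filled on the left and JUNB at 0.31 on the right.

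Within the JUN family, JUN fell and JUNB rose. JUN (ENSG00000177606, chr1:58780788-58784327, minus strand), the strongest activator of the family, read 13.3, 13.8 and 13.3 FPKM in controls and 9.10, 10.6 and 9.59 FPKM after SF3B4 siRNA. The control libraries agreed within 1.04-fold, and all 3 SF3B4 siRNA libraries lay below them. On the log2 scale the change was -0.46 (standard error 0.08, limma adjusted p = 0.00428), and the call held in all 16 alternatives, from -0.52 to -0.42.

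JUNB (ENSG00000171223, chr19:12791496-12793315, plus strand), which often restrains JUN activity when they are expressed together, was the most abundant of the 10 genes. It read 119, 145 and 134 FPKM in controls and 158, 174 and 157 FPKM after SF3B4 siRNA, with no overlap between groups. On the log2 scale the change was 0.31 (standard error 0.08, limma adjusted p = 0.0271). The call was lost in 7 of 16 alternatives, with adjusted p between 0.0515 and 0.0839 in those: without control replicate 1 (log2 fold change 0.23) or 3 (0.32), without SF3B4 siRNA replicate 1 (0.33) or 2 (0.26), with quantile normalization (0.23), without a filter on low values, and without limma's trend and robust options. Over 14.2% of its exon JUNB overlaps HOOK2 on the opposite strand, which stood at 2.97 to 4.70 FPKM, and whether counting used strand is unstated in those sources.

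JUND (ENSG00000130522, chr19:18279760-18281622, minus strand), the JUN member that most cells express constitutively, read 63.0, 77.0 and 83.8 FPKM in controls and 89.1, 87.5 and 84.5 FPKM after SF3B4 siRNA. The groups did not overlap, but the highest control library and the lowest SF3B4 siRNA library were close. The log2 fold change of 0.23 with a standard error of 0.10 did not pass the test (limma adjusted p = 0.121). Without control replicate 1, the lowest control library, it was 0.12 (limma adjusted p = 0.192).

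Since FPKM is scaled by length, the family members can be compared by level. The summed FOS family level was 22.1, 20.3 and 19.2 FPKM in controls and 13.7, 12.8 and 6.43 FPKM after SF3B4 siRNA, and FOSL2 made up 77.6% ± 2.01 and 79.0% ± 8.35 of it (SD, n = 3 each). The summed JUN family level was 195, 235 and 231 FPKM in controls and 256, 272 and 251 FPKM after SF3B4 siRNA. JUNB supplied 60.1% ± 1.86 of it in controls and 62.8% ± 1.16 after SF3B4 siRNA, and JUN 6.15% ± 0.57 and 3.75% ± 0.18. JUNB transcripts outnumbered JUN transcripts by 8.93, 10.5 and 10.0 to 1 in controls and by 17.4, 16.5 and 16.4 to 1 after SF3B4 siRNA. The JUN family sum was 8.83, 11.6 and 12.0 times the FOS family sum in controls and 18.8, 21.3 and 39.1 times after SF3B4 siRNA. On both of these ratios the groups did not overlap. That was bound to follow, because the upper and lower part of each ratio were already separated, in opposite directions. The ratio of FOSL2 to FOSL1 was 3.60, 3.60 and 4.57 in controls and 7.42, 8.33 and 3.64 after SF3B4 siRNA, with replicate 3 inside the control range. These sums and ratios are descriptions of transcript levels, without a test.

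**Figure D3:**
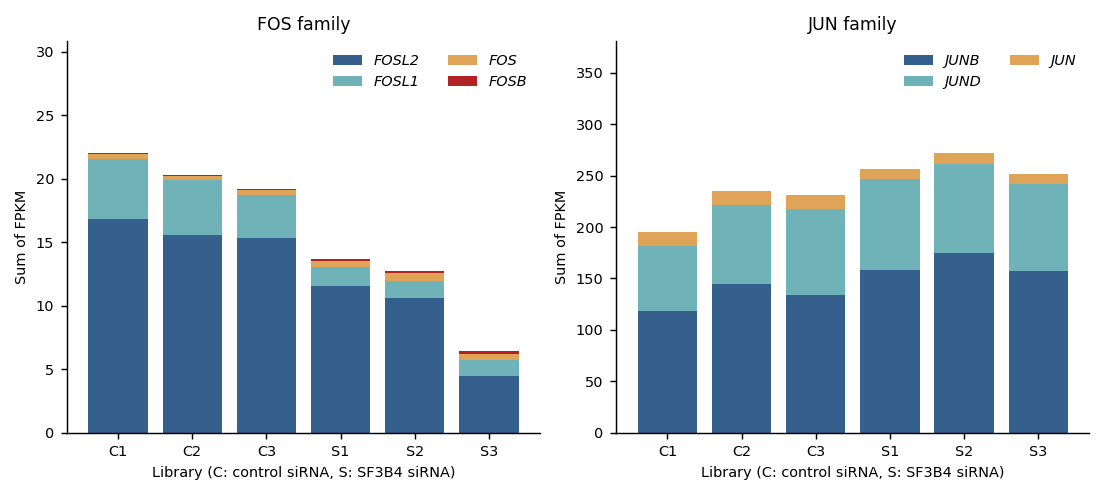
Summed FPKM of FOS family (left) and JUN family (right) genes in each library, C1 to C3 for control siRNA and S1 to S3 for SF3B4 siRNA, divided by gene. The FOS family sum is lowest in S3, at 6.43 FPKM, and JUNB is the largest share of the JUN family in all 6 libraries.

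The order of levels in controls was JUNB (132 FPKM), JUND (74.6), FOSL2 (15.9), JUN (13.5), FOSL1 (4.12), ATF3 (1.08), EGR1 (0.771), MYC (0.647), FOS (0.383) and FOSB (0.109). Neighbours from JUNB to ATF3 did not overlap between libraries, nor did FOS and FOSB, while ATF3, EGR1 and MYC each overlapped the next. After SF3B4 siRNA, JUN (9.76 FPKM) and FOSL2 (8.87) overlapped. ATF3 (1.45), FOSL1 (1.35) and MYC (0.987) each overlapped the next in order, which after MYC is FOS (0.534). FOS and EGR1 (0.290) did not overlap, while EGR1 and FOSB (0.191) did. FOSL1 thus stood clear of ATF3 in controls and within its range after SF3B4 siRNA.

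EGR1 (ENSG00000120738, chr5:138465490-138469315, plus strand), a zinc finger factor switched on by serum response factor, was low in all libraries. It read 0.804, 0.825 and 0.684 FPKM in controls and 0.437, 0.176 and 0.258 FPKM after SF3B4 siRNA, 37.6% of control. All 3 SF3B4 siRNA libraries lay below the controls, on 10 to 46 fragments per library. EGR1 failed the 1 FPKM filter and fell in the fit of genes at 0.1 FPKM (log2 fold change -1.21, standard error 0.26, limma adjusted p = 0.0185) and without any filter (limma adjusted p = 0.0355). In the fit at 0.1 FPKM all 10 genes were tested, and 3 were lower and 1 higher, beside 11.1% lower and 9.00% higher of all genes in that fit.

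ATF3 (ENSG00000162772, chr1:212565334-212620777, plus strand), a stress-induced repressor that can pair with JUN proteins, read 1.00, 0.702 and 1.54 FPKM in controls and 1.89, 1.28 and 1.19 FPKM after SF3B4 siRNA. The groups overlapped, and the log2 fold change of 0.43 with a standard error of 0.29 did not pass the test (limma adjusted p = 0.286). MYC (ENSG00000136997), which pairs with MAX to drive growth genes, read 1.37, 0.490 and 0.0798 FPKM in controls and 0.599, 0.869 and 1.49 FPKM after SF3B4 siRNA. The control libraries alone covered the range of nearly all 6, from 3 fragments upward to 59, and such a range of 17.2-fold was reached in 7 of 9672 tested genes. Those genes passed the 1 FPKM filter and MYC did not, so they are not a set of like level. In the fit at 0.1 FPKM the log2 fold change of MYC was 0.93 (standard error 0.72, limma adjusted p = 0.422).

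**Figure D4:**
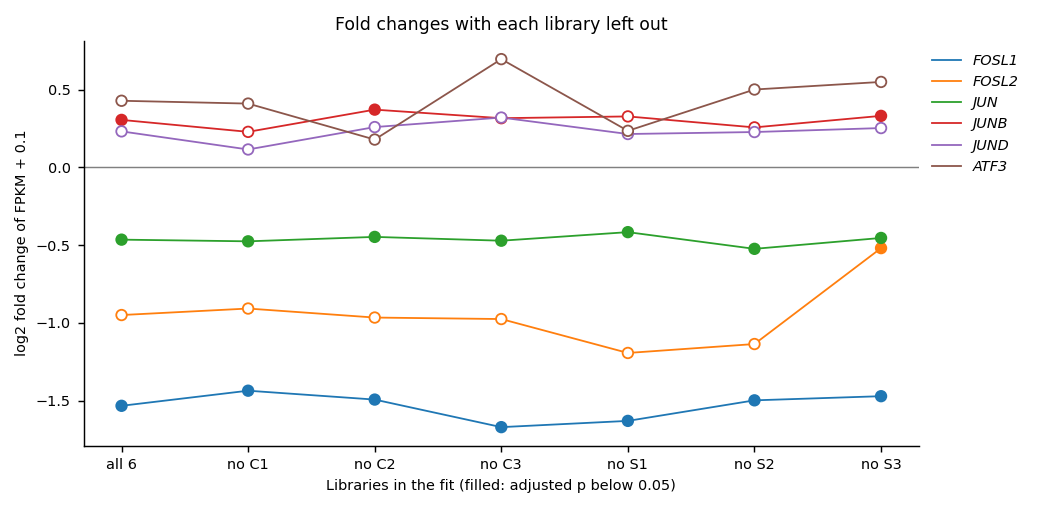
log2 fold change of the 6 tested genes with all 6 libraries and with each library left out in turn (C, control siRNA; S, SF3B4 siRNA); filled points have an adjusted p below 0.05. FOSL1 and JUN are filled throughout, FOSL2 is filled only without S3, where it moves from -0.95 to -0.52, and JUNB is filled only with all 6 libraries and without C2 or S3.

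SF3B4 acts on introns, and JUN, JUNB and JUND have none, so the tested single-exon genes are given beside them. Of 234 tested coding genes with 1 exon, 62 (26.5%) were lower and 32 (13.7%) higher, with a median log2 fold change of -0.09. Of 8241 with more exons, 18.4% were lower and 16.8% higher, with a median of -0.0021. JUN was among the 62 and JUNB among the 32, while JUND was not called.

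Around AP-1, the genes of 7 companion lists were counted in the same test. The count of every list is to be read beside the 18.1% lower and 16.0% higher of all tested genes. Other basic leucine zipper factors that can pair with AP-1 or share its sites gave 1 lower and 3 higher of 15 tested, with a median log2 fold change of 0.03 beside -0.0035 for all tested genes. The adjusted p (limma) of the list genes named below as risen or fallen ran from 8.8e-05 to 0.0487. NFE2L1, a stress factor that induces proteasome genes, rose from 12.0 ± 0.47 to 22.1 ± 1.77 FPKM. BATF3, a JUN partner, fell from 6.77 ± 0.96 to 3.94 ± 0.29 FPKM (SD, n = 3 each here and below). DDIT3 (CHOP) rose from 1.14 ± 0.12 to 1.90 ± 0.05 FPKM, with 27.2% of its exons overlapped by MARS on the opposite strand at 11.8 to 14.0 FPKM.

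Other immediate early genes gave 3 lower and 2 higher of 13 tested, with a median of -0.23. CCN1, a secreted matrix protein, fell from 39.8 ± 4.10 to 20.6 ± 3.36 FPKM, and IER3 fell from 66.4 ± 3.21 to 37.2 ± 0.57 FPKM; an antisense gene overlaps 26.5% of the exons of IER3 and stood at 0 to 0.832 FPKM. RHOB, a small GTPase, rose from 24.4 ± 1.26 to 59.0 ± 1.04 FPKM and CSRNP1 from 12.3 ± 0.65 to 19.0 ± 1.42 FPKM. The remaining call was DUSP1, a phosphatase of MAP kinases, outside the naming rule and picked after its values were seen, which fell from 22.5 ± 4.21 to 14.5 ± 1.00 FPKM.

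Of the MAP kinase cascade and the serum response factor group, 5 were lower and 4 higher of 16 tested, with a median of 0.17. ELK3, an ETS partner of serum response factor, fell from 1.69 ± 0.78 to 0.641 ± 0.21 FPKM. ELK3 reached 1 FPKM only in control libraries, so the filter let it be called here only as lower. In the fit at 0.1 FPKM it was also lower (limma adjusted p = 0.0397). MAPK3 (ERK1) rose from 23.5 ± 0.49 to 37.1 ± 1.97 FPKM and MAP2K2 (MEK2) from 14.9 ± 2.57 to 20.7 ± 1.91 FPKM. Genes of this list thus differed in direction.

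Textbook AP-1 target genes gave 8 lower and 0 higher of 14 tested, beside 18.1% lower and 16.0% higher of all tested genes, with a median of -0.31. CCND1 (cyclin D1) fell from 13.8 ± 1.08 to 4.96 ± 0.74 FPKM, PHLDA1 from 5.84 ± 0.44 to 2.85 ± 0.56, HBEGF, an EGF receptor ligand, from 1.05 ± 0.05 to 0.482 ± 0.06, and LIF, a cytokine, from 1.42 ± 0.05 to 0.952 ± 0.12. HBEGF reached 1 FPKM only in control libraries, so the filter let it be called here only as lower. In the fit at 0.1 FPKM, which its libraries of both groups reach, it was also lower (limma adjusted p = 0.00398). LTO1 overlaps 10.3% of CCND1 exons on the opposite strand and stood at 0.475 to 0.677 FPKM. In the fit reaching down to 0.1 FPKM the list gave 6 lower and 2 higher of 20, beside 11.1% lower and 9.00% higher of all genes in that fit. The 2 higher genes were the collagenase MMP1, from 0.0467 ± 0.03 to 0.263 ± 0.02 FPKM, and the stromelysin MMP3, from 0.417 ± 0.06 to 0.985 ± 0.18 FPKM, both picked after their values were seen. MMP1 reached 0.1 FPKM only in SF3B4 siRNA libraries, so that filter let it be called only as higher, at a very low level. MMP9 (log2 fold change 0.25) and MMP10 (-0.34), of the same list, did not pass in that fit (limma adjusted p = 0.196 and 0.578).

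Genes of the wider dimerization network around MYC and MAX gave 2 lower and 2 higher of 7 tested, with a median of 0.11. MAX, the partner of MYC itself, was not called (log2 fold change 0.11, limma adjusted p = 0.655). MXD3 fell from 2.96 ± 0.52 to 1.67 ± 0.17 FPKM and MLX from 9.02 ± 0.40 to 5.67 ± 0.34, while MXD4, a MAX-binding antagonist of MYC, rose from 10.0 ± 0.88 to 15.2 ± 1.02 and MLXIP, the glucose sensor MondoA, from 5.29 ± 0.22 to 7.23 ± 0.26. MXD3 shares 22.5% of its exons with PRELID1 (27.0 to 41.5 FPKM) and 18.0% with RAB24, and MLX shares 18.1% with PSMC3IP. MYC target genes gave 5 lower and 1 higher of 16 tested, beside 18.1% lower and 16.0% higher of all tested genes, with a median of -0.15. In the fit at 0.1 FPKM this list gave 4 lower and 1 higher of 18, beside 11.1% lower and 9.00% higher of all genes in that fit. SRM (spermidine synthase) fell from 53.2 ± 4.21 to 21.3 ± 2.20 FPKM, MYBBP1A from 8.91 ± 0.22 to 6.46 ± 0.47 and BOP1, a ribosome assembly factor, from 37.4 ± 3.33 to 29.6 ± 2.35, while ODC1, the first enzyme of polyamine synthesis, rose from 12.2 ± 0.68 to 19.1 ± 1.16 FPKM. ODC1 and SRM, which act in one pathway, moved in opposite directions.

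Proteins that bind AU-rich elements gave 2 lower and 0 higher of 7 tested, with a median of -0.19. ZFP36L2, which recruits deadenylases to such mRNAs, fell from 6.06 ± 0.86 to 3.16 ± 0.25 FPKM and HNRNPD (AUF1) from 13.0 ± 0.26 to 10.9 ± 0.86 FPKM. In the fit down to 0.1 FPKM, HNRNPD no longer passed (limma adjusted p = 0.067), leaving 1 of 8 lower. The lists were chosen with earlier results of these data known, so these counts are descriptions.

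**Figure D5:**
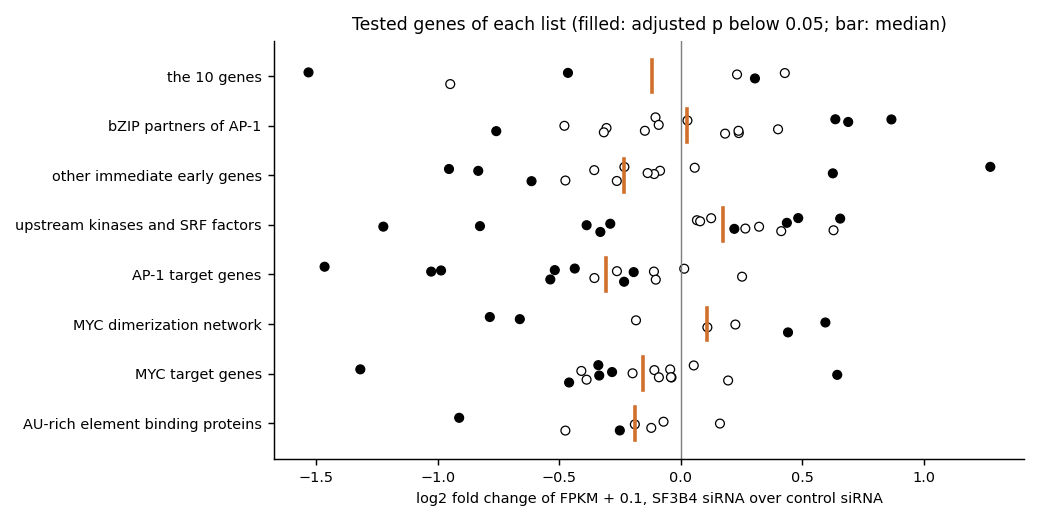
log2 fold change of FPKM + 0.1 for the tested genes of the 10-gene set and of 7 companion lists; each point is a gene, filled where the adjusted p was below 0.05, and orange bars are list medians. AP-1 target genes have their filled points on the left, with a median of -0.31, and kinases and serum response factor genes have filled points on both sides.

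The genes closest in pattern to FOSL1 were sought among 9679 others by the root mean square distance between centred log2(FPKM + 0.1) profiles over the 6 libraries. They were HK2-DT (distance 0.10; 6.21 ± 0.97 to 2.04 ± 0.35 FPKM), FOXF2 (0.11; 5.69 ± 0.46 to 1.82 ± 0.17 FPKM) and CDK2 (0.13; 5.19 ± 0.52 to 1.88 ± 0.34 FPKM). HK2-DT is a divergent transcript beside the hexokinase gene HK2, FOXF2 a forkhead factor and CDK2 a cell cycle kinase, of whose exons 14.5% are overlapped by an antisense gene at 0 to 0.0997 FPKM.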

How the data were processed

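The authors deposited 1 FPKM value per gene for each library, a unit scaled by transcript length and total fragments. Per the submitters' processing notes, the tools were HISAT2 2.0.4 and StringTie 1.3.0 and the build GRCh38, with no roles stated; total RNA was used, per the labels' protocols. Annotation and strand setting: not given in the sources used here. Depth was inferred from single-exon genes, where 99.1% to 99.5% of low values lay within 0.02 of a whole fragment. All fragment numbers per gene are approximate, since they assume the length of 1 GENCODE 29 transcript per gene. Counting figures cover counting error only. Symbols matched 49659 identifiers. Genes with at least 1 FPKM in 3 libraries were tested with limma 3.58.1 in R 4.3.3 on log2(FPKM + 0.1), a scale that understates changes of low genes; the script was checked on simulated data. Alternatives changed the pseudocount, filter, scaling, model, replicate block and libraries. The 10 genes and the lists were chosen with earlier results of these data known. Named genes are the 10, SF3B4, up to 4 called genes per list with the largest change, and the 3 nearest to FOSL1 in profile; 2 genes that the rule allows are not reported here. Sequences are from GENCODE 29 transcripts and RefSeq promoters. Replicate numbers were not treated as pairs.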

Additional observations from a re-analysis of the deposited data

How the results depend on the processing

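FOSL1 and JUN kept their direction and call in every alternative in which they were tested. Requiring a mean of 5 FPKM removed FOSL1, leaving 1 of the 10 genes lower, with 940 genes lower and 1027 higher overall against 1752 and 1546. The count of 1 gene higher (JUNB) became 0 without a filter, with quantile normalization, and without limma's trend and robust options, and ranged from 0 to 1 with a library left out; the count lower ranged from 2 to 3. Overall counts then ranged from 1331 to 1604 lower and from 1094 to 1492 higher, with fewer samples in each fit. Other scalings moved the median of all tested genes from -0.0035 to at most 0.03. With the replicate block, 1537 genes were lower and 1290 higher, and 2 and 1 of the 10 genes. Same-numbered libraries correlated at -0.08, 0.02 and -0.12 in their deviations, so the numbers were not taken as pairs. The AP-1 target list gained 2 higher genes at 0.1 FPKM, of which MMP1 passed that filter only through its SF3B4 siRNA libraries. Depth limits FOS, FOSB and EGR1, with as few as 6 fragments. MYC held about 59, 21 and 3 fragments in control replicates 1 to 3, at implied totals of 17742451 to 18233535 fragments. The source of that spread was not tested.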

Other observations

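IER2, another immediate early gene, was picked after its values were seen. It read 3.84, 13.4 and 12.7 FPKM in control replicates 1 to 3 and 1.67, 15.4 and 14.2 FPKM in SF3B4 siRNA replicates 1 to 3. Replicate 1 was the lowest library of both groups. SRF, the serum response factor gene, also picked after its values were seen, rose from 32.2 ± 1.14 to 37.5 ± 0.59 FPKM (SD, n = 3 each; limma adjusted p = 0.0257).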
